A study of Mus musculus with 10 samples.

Results

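Ovaries of old mice that had received CEFFE, the cell-free protein extract of fat tissue, were compared with ovaries of young mice. The aim was to find which transcripts differed from the young ovary after treatment. The comparison used 7 of the 10 ovaries of the series: 3 from the Aged+CF group (numbered 30, 32 and 34 in their labels) and 4 from the Control group (31, 32, 33 and 34). All mice had the C57BL/6J background. Control mice were 8 weeks old, while the treated animals had an age of 11 months by their labels and were slightly younger by the study's methods. CEFFE was given through the tail vein, 200 μL at 3 μg/μL every other day over a fortnight, and the other groups received saline on the same schedule. Every mouse was primed with 10 IU of PMSG, a gonadotropin that drives follicle growth, 48 h before its ovary was taken. The 3 untreated old ovaries (Aged 31, 33 and 34) are quoted beside the genes named. They took no part in the test, because earlier work on these data had shown a larger spread among them. Age and treatment both differ between Aged+CF and Control, so their shares in a difference cannot be told apart. The study calls the samples of a group biological replicates, without saying how many ovaries or mice went into a library, so p-values measure the spread between these samples.

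The ovary holds a fixed stock of primordial follicles, each an oocyte wrapped in somatic cells, that shrinks throughout adult life. Growing follicles surround the oocyte with dividing granulosa cells, which make anti-Müllerian hormone and, later, estradiol, while theca cells outside supply androgens. After ovulation the follicle wall becomes the corpus luteum, which makes progesterone from cholesterol, and ageing ovaries are known to gather macrophages, multinucleated giant cells and fibrous stroma.

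Between 15761789 and 21318254 reads per ovary had been counted on 55487 genes, and levels are given here as CPM, the reads of a gene scaled to a fixed library size, after TMM scaling. The ovary label held, since markers of oocytes, granulosa cells, theca cells and corpora lutea were read in all 7 libraries. In Control 33 the summed CPM over 11 oviduct and cilia markers was 433, against 36 to 40.1 in the other Control ovaries and 32.6 to 56.9 in Aged+CF. Control 33 also stood above the other Control ovaries for the called genes Gpnmb (88 against 60.7 to 62.6 CPM), Ctss (77 against 58.7 to 59.6) and Fmod (19.9 against 14.1 to 15). Correlations of log2 CPM were 0.976 to 0.983 among Aged+CF ovaries, 0.975 to 0.981 among Control ovaries and 0.953 to 0.977 between the groups. The first principal component held 39.4% of the variance and separated the groups, with Control from -39.7 to -11.2 and Aged+CF from 20.3 to 59.1.

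A call hereafter means a Benjamini-Hochberg adjusted p under 0.05 in edgeR's quasi-likelihood F test and a fold change of at least 1.5. After treatment, 454 of 18500 genes tested differed from the young ovary by this rule (2.45%). Of these, 206 were higher in Aged+CF (1.11%) and 248 lower (1.34%), and 400 were protein-coding. Genes of oocytes, granulosa cells and dividing cells were among the lower ones. Among the higher ones were genes of luteal steroid metabolism and macrophages, and the cell cycle inhibitor gene Cdkn1a. The groups did not overlap for any of the 454 called genes. Over all tested genes, 22.2% showed no overlap between the 3 and the 4 ovaries. Their log2 fold changes were positive for 8525 genes and negative for 9975. At unadjusted p and the same fold, 769 genes were higher and 1173 lower. The number of calls depended on single ovaries: it was 48 without Control 32, 61 without Control 34, 72 without Aged+CF 30, 76 without Aged+CF 32, 211 without Control 33, 421 without Control 31 and 439 without Aged+CF 34. Of the 86 called genes named hereafter, 14 were called in all 7 of these fits: Spp1, Gpnmb, Cd5l, Itgb2, Fcgr2b, Abcb1b, Efemp1, Entpd4b, Usp50, Exosc6, Gm10774, Gm10599, Gm42031 and Gm49980. The other 72 lost the call in at least 1 fit, their highest adjusted p being between 0.0515 and 0.139, and none of them changed direction. With the 3 Aged ovaries in the same fit, 34 genes were called, all of them among the 454. The biological coefficient of variation was 0.365 in Aged, 0.189 in Aged+CF and 0.201 in Control.

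**Figure D1:**
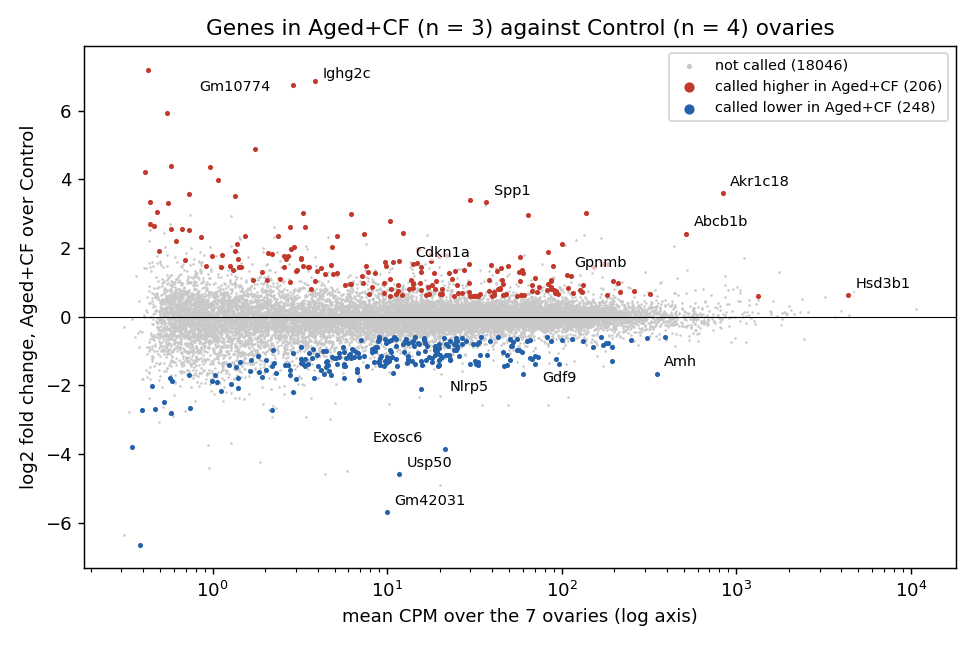
Each point is 1 of the 18500 genes tested, with its mean CPM over the 7 ovaries on a log axis and its log2 fold change, Aged+CF over Control. The 206 genes called higher (red) include Akr1c18 and Spp1, and the 248 called lower (blue) include Amh and Gdf9.

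Oocyte transcripts stayed far below the level of the young ovary. Of 32 oocyte genes listed, 31 were tested and 22 were called (71%, against 2.45% of all genes tested), all lower in Aged+CF. Their median log2 fold change was -1.30, against -0.03 over all genes tested. The summed CPM of the list was 373 to 553 in Aged+CF, 848 to 1100 in Control and 98.9 to 311 in Aged. In whole ovaries, fewer cells of a type and less RNA per cell cannot be told apart.

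For 14 of the 22 called oocyte genes a promoter was found in the RefSeq-based table, which holds 27025 genes (build GRCm38.p6). Zona pellucida and other oocyte genes are known to be switched on by the helix-loop-helix protein FIGLA through the E-box CANNTG. The 250 bases before the start were searched for it on both strands, and it can also be part of longer motifs. It was found in 12 of the 14 promoters (85.7%), against 66% of all promoters of that length. The homeobox protein NOBOX is known to bind TAATTG, which was found in 1 of the 14 (7.14%), against 7.34%. The promoters of 4 genes that encode a zona protein, a growth factor, a transcription factor and a maternal-effect enzyme are shown to give the sequence around these E-boxes, 5′ to 3′ on the strand of the gene, with each E-box in capitals.
Zp3, chr5:135979855-135980104, strand plus: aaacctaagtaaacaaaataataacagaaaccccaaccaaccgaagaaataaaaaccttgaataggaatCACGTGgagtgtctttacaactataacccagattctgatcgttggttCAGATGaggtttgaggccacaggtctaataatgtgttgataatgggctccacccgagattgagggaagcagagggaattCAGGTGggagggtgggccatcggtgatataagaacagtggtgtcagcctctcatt
Bmp15, chrX:6320725-6320974, strand minus: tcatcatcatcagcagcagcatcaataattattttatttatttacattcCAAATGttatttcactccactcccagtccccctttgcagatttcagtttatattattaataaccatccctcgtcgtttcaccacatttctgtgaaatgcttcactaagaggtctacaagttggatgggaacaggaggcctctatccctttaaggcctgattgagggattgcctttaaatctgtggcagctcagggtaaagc
Nobox, chr6:43309555-43309804, strand minus: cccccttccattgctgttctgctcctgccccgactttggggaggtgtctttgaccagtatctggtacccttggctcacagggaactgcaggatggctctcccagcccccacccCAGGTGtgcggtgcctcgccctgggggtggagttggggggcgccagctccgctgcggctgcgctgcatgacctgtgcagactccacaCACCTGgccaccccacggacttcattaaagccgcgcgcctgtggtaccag
Padi6, chr4:140742644-140742893, strand minus: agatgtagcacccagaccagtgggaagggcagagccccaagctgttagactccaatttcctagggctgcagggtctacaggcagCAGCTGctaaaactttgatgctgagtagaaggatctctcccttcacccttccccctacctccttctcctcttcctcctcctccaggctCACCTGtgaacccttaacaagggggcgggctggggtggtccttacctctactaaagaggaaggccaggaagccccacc
These stretches end at the base before the annotated start. Zp3 held 3 matches, Nobox and Padi6 held 2 each and Bmp15 held 1. A match describes the letters only.

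Per-ovary values follow in the order Aged+CF 30, 32 and 34, then Control 31, 32, 33 and 34, then Aged 31, 33 and 34. Nlrp5, a maternal-effect gene of the egg's subcortical complex (chromosome 7, 23385889 to 23441922), was at 21.2, 20.4 and 29.2 CPM, then 51.7, 68.4, 60.9 and 74, then 14.7, 8.87 and 0.939. Its log2 fold change against Control was -1.43 ± 0.17 (SE, adjusted p = 0.0137). All Aged+CF ovaries lay below all Control ovaries, and Aged 34 was the lowest of the series. Gdf9, the oocyte growth factor that acts on granulosa cells, was at 36.1, 29 and 45 CPM, then 84.9, 115, 86.9 and 98.5, then 22.5, 25.7 and 3.64 (log2 fold change -1.39 ± 0.17, adjusted p = 0.0152).

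The remaining members named were chosen after their values were seen. Bmp15, the partner of Gdf9, was at 15.2, 12.8 and 17.7 CPM, then 30, 34.8, 30.1 and 39.6, then 8.35, 8.73 and 0.497 (log2 fold change -1.14 ± 0.15, adjusted p = 0.0156). The zona pellucida genes Zp1, Zp2 and Zp3 had log2 fold changes of -1.27, -1.26 and -1.40, with adjusted p of 0.0287, 0.022 and 0.0223. Padi6, of the same subcortical complex as Nlrp5, fell by 1.37 on the log2 scale (adjusted p = 0.0241). Nobox and Lhx8, transcription factors of the early oocyte, had log2 fold changes of -1.28 and -1.45 (adjusted p = 0.0265 and 0.0206). Figla and Sohlh1, which act in the same network, were read at a mean of 0.309 and 0.972 CPM in Aged+CF against 1.19 and 2.77 in Control and were not called (adjusted p = 0.0664 and 0.0827).

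Mov10l1, the helicase needed for piRNA production, was named by its fold change: it was at 0.458, 0.631 and 0.375 CPM, then 1.86, 2.23, 1.82 and 2.38, then 0.119, 0.352 and 0 (log2 fold change -2.08 ± 0.28, adjusted p = 0.0168). Of the same pathway, and chosen after their values were seen, Mael, Tdrd9 and Tdrd1 had log2 fold changes of -1.59, -1.64 and -1.03, with adjusted p of 0.0223, 0.022 and 0.0214. The germ cell RNA-binding gene Dazl was lower as well (-1.30, adjusted p = 0.0239), while its fellow Ddx4, at 2.18 CPM against 3.7, was not called (adjusted p = 0.0978).

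The oocyte list was sensitive to single ovaries in its calls and not in its size. With 1 ovary left out, its median log2 fold change ran from -1.53 to -1.17, and its calls numbered 22 without Aged+CF 34, 19 without Control 31, 17 without Control 33, 4 without Aged+CF 32, 3 without Control 34, 2 without Control 32 and 0 without Aged+CF 30. No oocyte gene was called with all 10 ovaries in the fit, and 26 were called lower by DESeq2's Wald test.

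**Figure D2:**
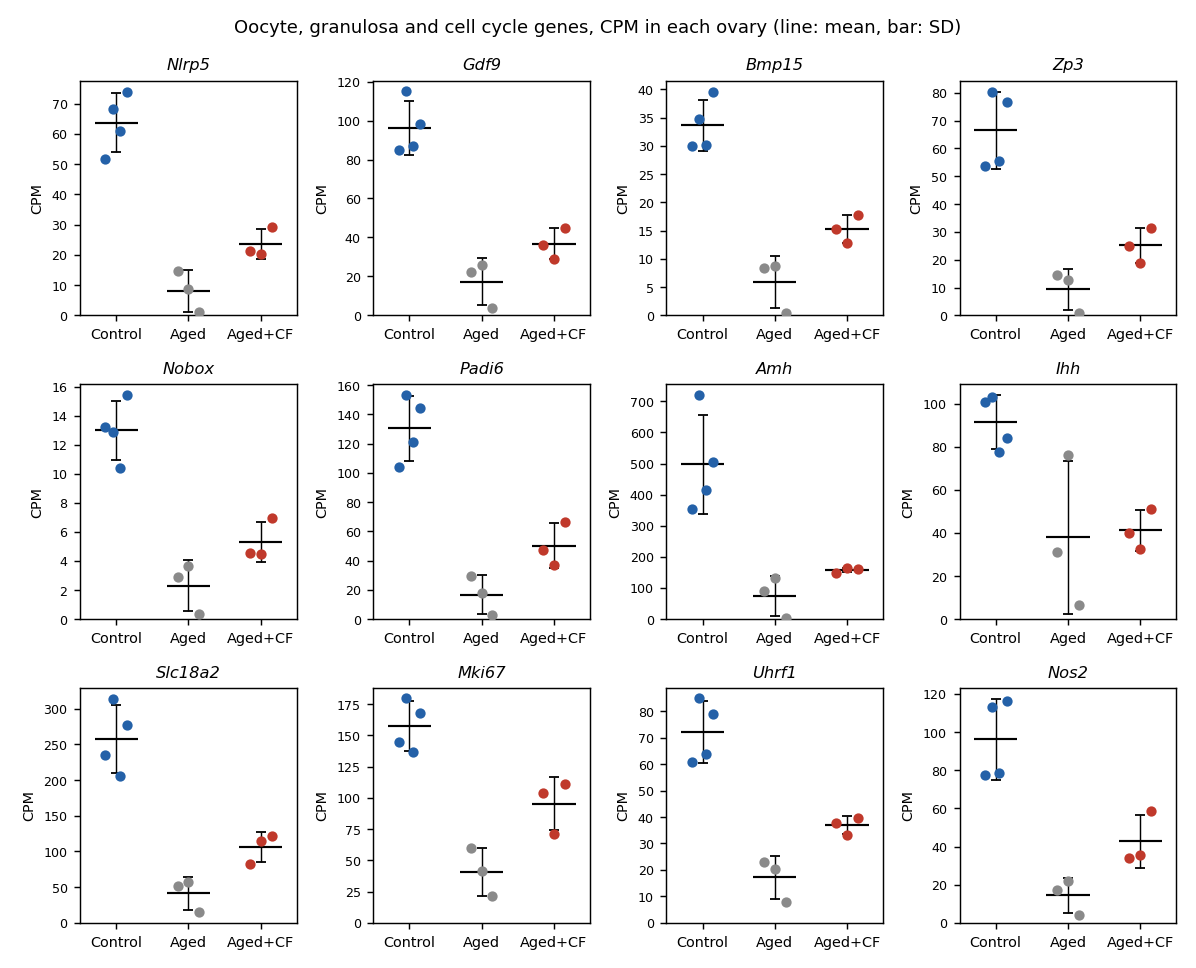
CPM of 12 genes in each of the 10 ovaries, with the mean (line) and SD (bar) of Control (n = 4), Aged (n = 3) and Aged+CF (n = 3). For Nlrp5, Gdf9, Amh and Uhrf1 every Aged+CF ovary lies below every Control ovary.

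Granulosa cell genes were lower in part. Of 18 granulosa genes tested, 3 were called lower (16.7%, against 2.45% of all genes tested) and none higher. Their median log2 fold change was -0.63. The summed CPM of the list was 4490 to 7270 in Aged+CF and 7590 to 11200 in Control. Amh, the hormone of preantral and small antral follicles (chromosome 10, 80805243 to 80807648), was at 149, 164 and 160 CPM, then 354, 719, 415 and 504, then 90.2, 131 and 3.26. It was 3.15-fold lower in Aged+CF than in Control (log2 fold change -1.66 ± 0.23, adjusted p = 0.0181). The treated ovaries lay close together, and all of them were below the lowest Control ovary.

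Slc18a2, a vesicular monoamine transporter gene, was at 82.7, 115 and 122 CPM, then 235, 314, 206 and 277, then 51.4, 57.1 and 15 (log2 fold change -1.28 ± 0.18, adjusted p = 0.0203). Nr5a2, the nuclear receptor LRH-1 of granulosa and luteal cells, was 1.52-fold lower, at 304 ± 46.7 CPM against 461 ± 36.6 (SD, n = 3 and 4, adjusted p = 0.0425). Ihh, the granulosa-made hedgehog ligand that signals to theca cells, was at 39.9, 32.5 and 51.1 CPM, then 101, 103, 77.8 and 84.1, then 31, 76.3 and 6.4 (log2 fold change -1.15 ± 0.17, adjusted p = 0.0214). Both groups of values were apart for each of these genes.

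Of the granulosa list, Cyp19a1, Inha and Foxl2 were chosen after their values were seen, as was Cyp17a1 of the theca list, and none of these was called. Cyp19a1, the aromatase that makes estradiol, ran from 7.57 to 35.4 CPM in Aged+CF and from 26.5 to 349 in Control (adjusted p = 0.146). The inhibin subunit Inha was at 1840 ± 548 CPM against 2890 ± 503 (adjusted p = 0.143). Foxl2, which keeps granulosa identity, was at 274 ± 44.5 against 401 ± 31.2 CPM and missed both limits (adjusted p = 0.0509). The FSH receptor gene Fshr was at 25.3, 10.8 and 22.3 CPM against 15.5, 26.8, 19.9 and 19.1 in Control (adjusted p = 0.924). The theca androgen enzyme Cyp17a1 was at 32.1 ± 28 against 165 ± 122 CPM, a spread too wide for a call (adjusted p = 0.13). Of 12 theca and hedgehog genes, 1 was called higher and 1 lower (together 16.7%, against 2.45% of all genes tested). Their median log2 fold change was -0.10. The granulosa calls fell to 0 without Control 34 or without Aged+CF 30. Over the 7 fits that each lacked 1 ovary, Amh had adjusted p of 0.016 to 0.0634. Nr5a2 was not called in any of these fits (adjusted p of 0.0537 to 0.108).

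Cell division transcripts lay below the young level, and few single genes passed the test. All 25 mitosis genes tested had negative log2 fold changes (median -0.69), and 2 were called (8%, against 2.45% of all genes tested). All 32 DNA replication genes were negative too (median -0.59), and 4 were called (12.5%). The mitotic kinase Nek2 was at 11.6, 8.14 and 11.8 CPM, then 18.2, 25.8, 21 and 19, then 6.5, 9.58 and 3.59 (log2 fold change -0.99 ± 0.18, adjusted p = 0.0333). Cenpf, a kinetochore protein, was 1.52-fold lower (33.2 ± 5.44 against 50.4 ± 2.83 CPM, adjusted p = 0.0394). Mki67, the proliferation marker Ki67, was at 104, 71.4 and 111 CPM, then 145, 180, 137 and 168, then 59.7, 41.2 and 21.4. Its groups did not overlap, and its adjusted p of 0.0553 missed the limit.

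Uhrf1, which carries DNA methylation through replication, was at 37.8, 33.1 and 39.7 CPM, then 60.8, 84.9, 63.8 and 78.9, then 22.9, 20.5 and 8.06 (log2 fold change -0.97 ± 0.14, adjusted p = 0.0203). The replication ligase Lig1 was 1.57-fold lower (adjusted p = 0.0354). Named after their values were seen, the helicase subunits Mcm2 and Mcm5 were 1.61 and 1.8-fold lower (adjusted p = 0.043 and 0.0446). Also named in this way, the cell cycle regulators Mybl2 and E2f1 were 2.01 and 1.89-fold lower (adjusted p = 0.0333 and 0.0394), and Mycn was 2.18-fold lower (adjusted p = 0.037). Neither list had a called gene without Control 32, without Control 34, without Aged+CF 30 or without Aged+CF 32, while the medians stayed between -0.85 and -0.51 in all 7 such fits. DESeq2's Wald test called 18 mitosis and 13 replication genes lower.

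Imprinted genes of fetal and postnatal growth were partly lower. Of 15 tested, 4 were called lower (26.7%, against 2.45% of all genes tested), with a median of -0.25. Plagl1, a zinc finger regulator of other imprinted genes, was at 84.5, 82.5 and 93.2 CPM, then 128, 150, 129 and 134, then 55.9, 52.1 and 43.9 (log2 fold change -0.64 ± 0.08, adjusted p = 0.0168). Peg10 was 1.77-fold, Ndn 1.63-fold and Meg3, a noncoding RNA, 1.62-fold lower (adjusted p = 0.0239, 0.0322 and 0.0448). Ndn and Meg3 were named after their values were seen. Meg3 overlaps miRNA host transcripts on its strand, so its reads may include theirs. Calls in this list fell to 0 without Control 34, without Aged+CF 30 or without Aged+CF 32, and Meg3 was not called with any 1 ovary left out. Homologous recombination genes, 35 tested, had no call and a median of -0.22. Their log2 fold changes were negative for 28 and positive for 7. At unadjusted p and the same fold, 8 were lower and none higher. DESeq2's Wald test called 4 lower, and 0 to 2 were called lower with 1 ovary left out. Their most abundant member Uimc1, which brings BRCA1 complexes to DNA breaks, was at 144 ± 14.6 against 164 ± 14.7 CPM (adjusted p = 0.296).

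**Figure D3:**
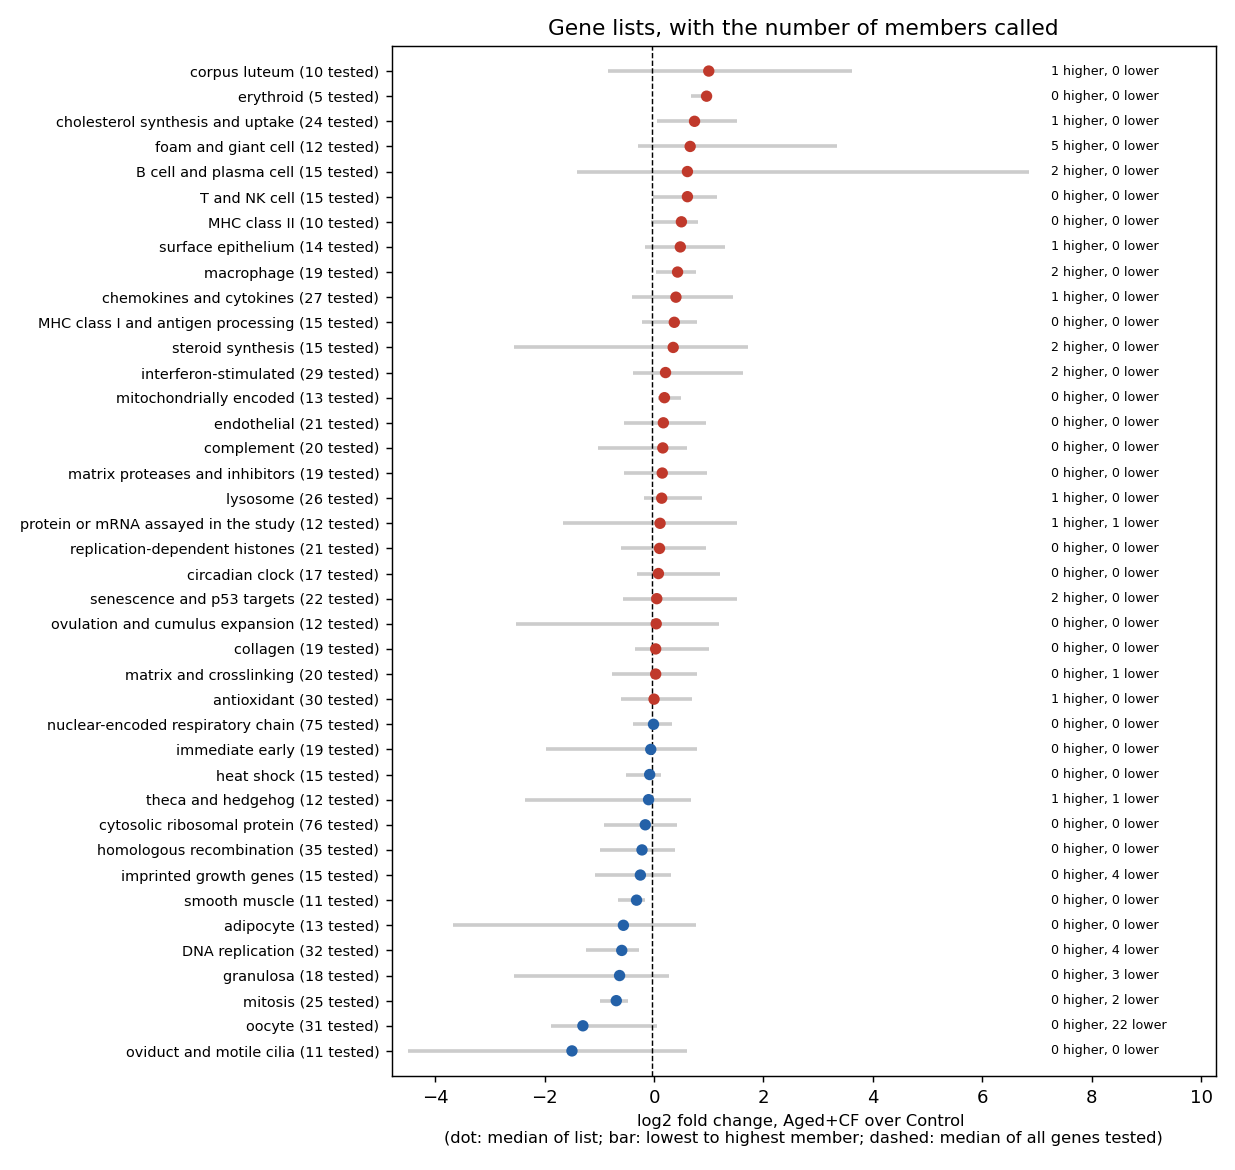
Median log2 fold change, Aged+CF over Control, of each of the gene lists (dot) with the range of its members (bar), the median of all 18500 genes tested (dashed line) and the number of members called. The oocyte list stands at -1.30 with 22 lower, and the corpus luteum list at 1.0 with 1 higher.

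On the higher side were single genes of the corpus luteum and of steroid synthesis. Of 10 corpus luteum genes, 8 had positive log2 fold changes (median 1.0) and 1 was called (10%, against 2.45% of all genes tested). Akr1c18, the enzyme that turns progesterone into a weaker metabolite and marks regressing corpora lutea (chromosome 13, 4132615 to 4150654), was at 1280, 3360 and 664 CPM, then 321, 70, 131 and 57.2, then 1080, 2670 and 219. Its log2 fold change was 3.61 ± 0.73 (12.2-fold, adjusted p = 0.0432). The lowest treated ovary was above the highest Control ovary, and both old groups spread widely. Akr1c18 was not called without any 1 of Control 32, 33 or 34 or of Aged+CF 30 or 32, with adjusted p up to 0.121 and a log2 fold change of 2.75 to 4.36.

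In the steroid synthesis list, 2 of 15 genes were called higher (13.3%, against 2.45% of all genes tested) and none lower. Hsd3b1, which makes progesterone from pregnenolone, was at 5430, 5670 and 5320 CPM, then 4130, 3160, 3450 and 3400, then 6900, 8970 and 4800 (log2 fold change 0.63 ± 0.12, adjusted p = 0.0354). The outer mitochondrial membrane protein gene Tspo was at 80.2, 115 and 84.2 CPM against 53.1 to 61.5 in Control (1.63-fold, adjusted p = 0.0338). Star, Cyp11a1 and Ptgfr were named after their values were seen. Star, the cholesterol importer of mitochondria, had treated values of 1520, 3060 and 942 CPM, all above the Control range of 187 to 802, and was not called (adjusted p = 0.103). Cyp11a1, the side-chain cleavage enzyme, was at 6150 ± 1330 against 3630 ± 1110 CPM, and the luteal prostaglandin receptor Ptgfr at 804 ± 313 against 316 ± 148 (adjusted p = 0.13 and 0.0978). Both steroid calls were absent without Control 32, 33 or 34, or without Aged+CF 30 or 32.

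All 24 genes of cholesterol synthesis and uptake had positive log2 fold changes (median 0.74). The share called was 4.17% (1 gene), near the 2.45% over all genes tested. Msmo1, a sterol methyl oxidase, was at 172, 207 and 119 CPM, then 79.2, 52.6, 94.2 and 67.5, then 362, 760 and 214 (log2 fold change 1.18 ± 0.23, adjusted p = 0.0378). The synthesis genes Cyp51 and Idi1, named after their values were seen, were 2.01 and 2.16-fold higher without a call (adjusted p = 0.0886 and 0.122). Without Control 32, Control 34, Aged+CF 30 or Aged+CF 32 no member of this list was called, and the median ran from 0.50 to 0.92 over the 7 fits.

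Several strongly raised genes lay outside the lists and were chosen after their values were seen. Abcb1b, a P-glycoprotein drug and steroid efflux pump, was at 804, 1260 and 840 CPM, then 207, 132, 212 and 172, then 961, 1400 and 799 (log2 fold change 2.42 ± 0.21, adjusted p = 0.00372). It was called in all 7 fits with an ovary left out. Its paralog Abcb1a was 1.7-fold higher (107 ± 12.1 against 63 ± 10.2 CPM, adjusted p = 0.0322), and reads of the pair may have been split between them in counting. Efemp1, an extracellular matrix glycoprotein gene, was at 157, 235 and 147 CPM, then 41.2, 37, 47.4 and 40.6, then 176, 303 and 211 (log2 fold change 2.11 ± 0.17, adjusted p = 0.00271). Ccn5, a matricellular protein, was 8.15-fold higher (adjusted p = 0.0168), and Tlcd4 was 7.71-fold higher (adjusted p = 0.028).

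**Figure D4:**
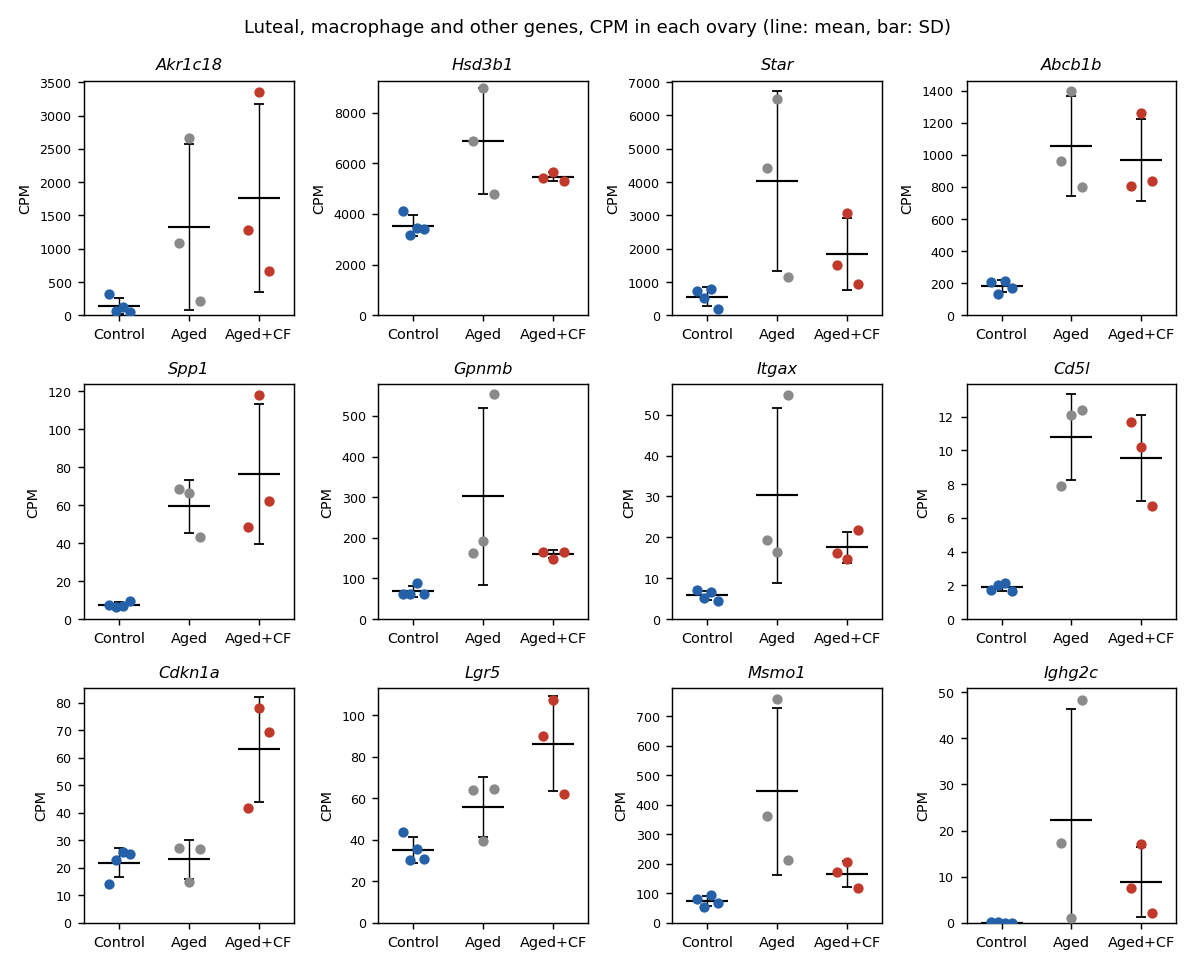
CPM of 12 genes in each of the 10 ovaries, with the mean (line) and SD (bar) of Control (n = 4), Aged (n = 3) and Aged+CF (n = 3). For Cdkn1a the Aged+CF values of 41.8 to 78.1 CPM lie above those of both other groups, while for Spp1 and Abcb1b the Aged and Aged+CF values overlap and lie above Control.

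Several macrophage transcripts stayed above the young level after treatment. All 19 macrophage genes tested had positive log2 fold changes (median 0.43) and 2 were called (10.5%, against 2.45% of all genes tested). In the list of foamy and multinucleated giant macrophages, 5 of 12 were called higher (41.7%) and none lower (median 0.66). The summed CPM was 799 to 897 in Aged+CF, 555 to 645 in Control and 878 to 1900 in Aged for the first list. The corresponding sums for the second list were 674 to 816, 438 to 563 and 750 to 1450.

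Spp1, the secreted phosphoprotein osteopontin (chromosome 5, 104435118 to 104441050), was at 48.3, 118 and 62.3 CPM, then 7.39, 6.46, 6.74 and 9.35, then 68.7, 66.2 and 43.2 (log2 fold change 3.35 ± 0.30, 10.2-fold, adjusted p = 0.0047). All 6 old ovaries lay above all 4 Control ovaries. Gpnmb, a lysosomal membrane glycoprotein of lipid-laden macrophages, was at 166, 148 and 165 CPM, then 60.7, 62.6, 88 and 60.7, then 162, 191 and 553 (log2 fold change 1.23 ± 0.14, adjusted p = 0.0123). Both genes were called in all 7 fits with 1 ovary left out. The list members Acp5, Mmp12, Atp6v0d2 and Trem2 were named after their values were seen. Acp5, Mmp12 and Atp6v0d2, an acid phosphatase, an elastase and a proton pump subunit of giant cells, were 1.89, 2.39 and 1.78-fold higher (adjusted p = 0.022, 0.0322 and 0.0353). Trem2 was at 24.4 ± 1.7 against 17.3 ± 1.92 CPM without a call (adjusted p = 0.0548). Between 2 and 5 genes of this list were called whichever ovary was left out.

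Lyz2, the lysozyme of myeloid cells, was at 358, 331 and 330 CPM, then 188, 203, 230 and 184, then 398, 436 and 959 (log2 fold change 0.76 ± 0.09, adjusted p = 0.0152). Adgre1, which encodes the macrophage antigen F4/80, was 1.58-fold higher (26.1 ± 2.17 against 16.5 ± 2.19 CPM, adjusted p = 0.0361). Ctss, a lysosomal cysteine protease, was 1.83-fold higher (adjusted p = 0.0223). It was the single call among 26 lysosomal genes (3.85%, against 2.45% of all genes tested), whose median was 0.14. Without Control 32 or without Aged+CF 30 neither Lyz2 nor Adgre1 was called, with adjusted p up to 0.0517 and 0.114, and of the 7 fits Adgre1 was called in 1.

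Other leukocyte genes, named after their values were seen, were higher too. Cd5l, a scavenger receptor protein secreted by macrophages, was at 11.7, 10.2 and 6.7 CPM, then 1.75, 1.99, 2.13 and 1.64, then 7.87, 12.1 and 12.4 (log2 fold change 2.34 ± 0.23, adjusted p = 0.00585). The integrins Itgax and Itgb2 were 3.02 and 2.14-fold higher, the leukocyte phosphatase Ptprc 1.76-fold and the Fc receptor Fcgr2b 1.92-fold higher (adjusted p = 0.0154, 0.0152, 0.0152 and 0.00779). Runx3, a transcription factor of lymphocytes and granulosa cells, was 4.1-fold higher (adjusted p = 0.0267).

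Of 15 B cell and plasma cell genes tested, 2 were called higher (13.3%, against 2.45% of all genes tested) and none lower. Their median was 0.61. The members did not all go one way: 10 had positive and 5 negative log2 fold changes, and at unadjusted p and the same fold 6 were higher and 3 lower. DESeq2's Wald test called 5 higher and 2 lower. Ighg2c, an IgG heavy chain constant region, was at 7.56, 17.1 and 2.15 CPM in Aged+CF, with at most 3 reads in any Control ovary, and at 17.4, 1.13 and 48.4 CPM in Aged. Measured against the floor of 3 reads per library, the treated level was at least 53.2-fold higher (adjusted p = 0.0187). Ighm, the IgM heavy chain, was at 14.9, 17.6 and 12.5 CPM, then 5.88, 8.57, 7.34 and 6.07, then 115, 9.58 and 1620 (log2 fold change 1.11 ± 0.18, adjusted p = 0.0259). Its Aged mean rests on Aged 34. Without Control 32, Control 34 or Aged+CF 30 neither gene was called, nor was Ighm without Control 33 or Aged+CF 32.

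T and NK cell genes, 15 tested, had no call and a median of 0.61. Their log2 fold changes were positive for 13 and negative for 2, and at unadjusted p and the same fold 5 were higher and none lower. Their most abundant member Lck, a T cell kinase, stood at the low end of the list (log2 fold change -0.02). It was at 3.73 ± 0.857 against 3.8 ± 0.719 CPM (adjusted p = 0.964). Class II and class I antigen presentation genes had medians of 0.50 and 0.37 with no call among 10 and 15. The invariant chain Cd74 was at 283 ± 92.6 against 173 ± 14.2 CPM and the class I heavy chain H2-D1 at 384 ± 55.1 against 289 ± 16.1 (adjusted p = 0.0841 and 0.0698). Interferon-stimulated genes had 2 calls among 29 (6.9%, against 2.45% of all genes tested) and a median of 0.21. Rsad2, the antiviral enzyme viperin, was at 21.4, 21.3 and 14.4 CPM against 9.02, 3.41, 6.43 and 5.65 in Control (log2 fold change 1.63 ± 0.29, adjusted p = 0.0333), and the GTPase Gbp2 was 1.55-fold higher (adjusted p = 0.0351). The chemokine receptor Cxcr6 was 2.72-fold higher (adjusted p = 0.0214). It was the single call among 27 chemokine and cytokine genes (3.7%, against 2.45% of all genes tested), whose median was 0.40. Rsad2 and Gbp2 were not called without any 1 of Control 32, 33 or 34 or of Aged+CF 30 or 32, nor was Gbp2 without Aged+CF 34, nor was Cxcr6 without Control 32, Control 34 or Aged+CF 30.

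Among the genes whose protein or mRNA the study assayed by other methods, in mice or in human granulosa cells, the gene of the cell cycle inhibitor p21 was higher after treatment than in the young ovary. Cdkn1a, which encodes it (chromosome 17, 29090976 to 29100727), was at 41.8, 78.1 and 69.3 CPM, then 14, 23, 25.9 and 24.9, then 27.3, 15 and 27. It was 2.87-fold higher in Aged+CF than in Control (log2 fold change 1.52 ± 0.26, adjusted p = 0.0282). Each treated ovary lay above all 7 others. Without any 1 of Control 32, 33 or 34 or of Aged+CF 32 or 34 it was not called, with adjusted p up to 0.0917. Gadd45a, a stress gene that p53 can induce, lies outside the lists and was chosen after its values were seen. It was 2.17-fold higher (101 ± 26.7 against 46.6 ± 5.75 CPM, adjusted p = 0.0241). Over the whole list of 22 senescence and p53 target genes the median was 0.05. Of these, 2 were called higher (9.09%, against 2.45% of all genes tested), of which Cdkn1a was 1, and none lower.

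Cdkn2a, which encodes p16, was at 1.95, 2.06 and 3.75 CPM, then 1.8, 1.12, 2.18 and 1, then 4, 5.28 and 2.1 (adjusted p = 0.251). Trp53 was at 104 ± 11.8 against 127 ± 17.9 CPM (adjusted p = 0.233). H2ax, the histone variant marked at DNA breaks, was at 56.5 ± 8.68 against 87 ± 13 CPM (adjusted p = 0.0574). The endothelial antigen gene Pecam1, which encodes CD31, was at 77.7 ± 4.71 against 67.9 ± 11.2 CPM (adjusted p = 0.413). The deacetylase Sirt2 was at 74.1 ± 2.47 against 61.4 ± 11.7 CPM (adjusted p = 0.301), and the chemokines Ccl2 and Ccl4 were read at no more than 5.22 and 1.1 CPM in any ovary (adjusted p = 0.533 and 0.977). Of the 12 assayed genes tested, Amh was called lower and Cdkn1a higher (together 16.7%, against 2.45% of all genes tested).

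Among the lists of stroma and vessels, 1 gene was called. Of 19 collagen genes none was called (median 0.03), and Col1a2, a chain of type I collagen, was at 1180 ± 177 against 1350 ± 75.7 CPM (adjusted p = 0.334). Among 20 other matrix genes, 1 was called (5%, against 2.45% of all genes tested). Fmod, a proteoglycan that binds collagen fibrils, was called lower, at 9.62, 8.14 and 10.1 CPM, then 15, 14.7, 19.9 and 14.1, then 13.7, 10.6 and 11.6 (log2 fold change -0.77 ± 0.16, adjusted p = 0.0432). It was not called with any 1 ovary left out. Matrix proteases and inhibitors, 19 tested, had no call, with Timp2 at 478 ± 32.4 against 385 ± 30.8 CPM (adjusted p = 0.0958). The 21 endothelial genes had no call either (median 0.17), with the cadherin Cdh5 at 141 ± 18.6 against 123 ± 8.68 CPM (adjusted p = 0.306). All 11 smooth muscle genes had negative log2 fold changes (median -0.32) and none was called, with Acta2 at 503 ± 155 against 696 ± 46.9 CPM (adjusted p = 0.203).

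In the surface epithelium list, 1 of 14 genes was called (7.14%, against 2.45% of all genes tested). Lgr5, a Wnt pathway receptor of the ovarian surface, was at 89.7, 107 and 61.8 CPM, then 43.8, 30.2, 35.5 and 30.8, then 63.8, 39.2 and 64.4 (log2 fold change 1.29 ± 0.20, adjusted p = 0.0223). It was not called without Control 32, 33 or 34 or without Aged+CF 30 or 32, with adjusted p up to 0.0729. Aldh1a2, a retinoic acid synthesis gene chosen after its values were seen, was 1.73-fold higher (adjusted p = 0.0401).

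Lists of general cell function held 1 called gene. Among 75 nuclear-encoded respiratory chain genes and 76 cytosolic ribosomal protein genes none was called, with medians of -0.01 and -0.16, and Atp5b and Rpl4 were at 860 ± 64.2 against 867 ± 33.7 and 1210 ± 150 against 1320 ± 95.5 CPM (adjusted p = 0.945 and 0.55). The 13 mitochondrially encoded genes were all positive (median 0.19) without a call, with mt-Co1 at 11700 ± 454 against 9950 ± 263 CPM (adjusted p = 0.236). Antioxidant genes had a median of 0.00 and 1 call among 30 (3.33%, against 2.45% of all genes tested). The called gene, the glutathione synthetase Gss, was at 27.8, 35.3 and 26.3 CPM against 18.5 to 21.2 in Control (1.51-fold, adjusted p = 0.0471). Gss shares exonic sequence with antisense transcripts. Heat shock genes, with Hsp90ab1 as the most abundant member (adjusted p = 0.715), had no call and a median of -0.08.

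The immediate early and clock lists, with Jund and Tef as their most abundant members (adjusted p = 0.791 and 0.77), had no call and medians of -0.06 and 0.08. Complement had no call and a median of 0.16, with Clu at 1410 ± 281 against 1010 ± 63.5 CPM (adjusted p = 0.0944). The histone list had a median of 0.10, with H1f2 at 105 ± 41.7 against 57.8 ± 15.5 CPM (adjusted p = 0.124), and the ovulation list one of 0.04, with the hyaluronan-binding proteoglycan Vcan at 147 ± 24.7 against 193 ± 6.84 CPM (adjusted p = 0.0983). Neither had a call. Markers of fat and blood around the ovary had none. Of 13 adipocyte genes 11 had negative and 2 positive log2 fold changes (median -0.56). Their most abundant member Plin4 went against the list, at 285 ± 60.5 against 168 ± 126 CPM (adjusted p = 0.4). Erythroid genes had a median of 0.96, with Hba-a1 at 75.9 ± 34.6 against 39.2 ± 8.95 CPM (adjusted p = 0.103). In the oviduct list the median was -1.50 without a call, and Ovgp1 was at 297 CPM in Control 33 and 1.28 to 6.34 in the other Control ovaries.

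The largest single differences fell on genes of unrelated roles. Besides Ighg2c, Akr1c18 and Spp1, the largest rises by the naming rule were Csprs (15.8-fold, 2.31 ± 0.768 against 0.143 ± 0.0966 CPM, adjusted p = 0.0183), the interferon-inducible PYHIN gene Ifi208 (12-fold, 1.56 ± 0.566 against 0.12 ± 0.0718 CPM, adjusted p = 0.0152) and the orphan receptor Gpr176 (8.16-fold, adjusted p = 0.037). The largest falls, beside Mov10l1, were Usp50, Exosc6, Epb42, Dpp10 and Ap3b2, with log2 fold changes of -4.59, -3.85, -2.66, -2.20 and -2.16 (adjusted p = 0.0116, 0.00372, 0.0287, 0.0187 and 0.0181). Among the abundant genes, the membrane protein gene Serinc3 was 1.53-fold higher (1660 ± 201 against 1090 ± 42.3 CPM, adjusted p = 0.0267) and the RNA-binding protein gene Carhsp1 was 1.52-fold lower (237 ± 26.6 against 361 ± 38.7 CPM, adjusted p = 0.0364). Nos2, the inducible nitric oxide synthase chosen after its values were seen, was at 34, 35.3 and 58.6 CPM against 77.3, 113, 78.5 and 116 in Control (2.26-fold lower, adjusted p = 0.0442).

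Some of these differences involve genes that share sequence, where the split of reads is uncertain. Usp50, a ubiquitin protease-like gene, was at 1.77, 0.402 and 0.328 CPM, then 15.1, 27, 18.4 and 18.5, then 22.2, 54.1 and 12.7. The pseudogene Gm10774 overlaps an exon of Usp50 on the same strand (chromosome 2, 126709354 to 126709557), and it was at 5.5, 7.8 and 6.65 CPM with at most 3 reads in any Control ovary, at least 39.6-fold higher (adjusted p = 0.000126). The pair thus moved in opposite directions, and the part of read assignment in this was not tested. Exosc6, an exosome subunit, shares exonic sequence with Aars on its strand and was at 1.26, 4.07 and 2.06 CPM, then 31.2, 40.2, 33 and 37.9, then 1.61, 15 and 1.6. Over all 454 called genes, 6.17% overlapped an exon of another gene on the same strand, against 8.78% of those tested.

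Of predicted genes, the largest rises after Gm10774 were Gm13301 (at least 7.54-fold, adjusted p = 0.0137) and Gm10599 (at least 23.2-fold, adjusted p = 0.00185). The largest falls were Gm42031 (0.33 ± 0.136 against 17.2 ± 8.22 CPM, adjusted p = 0.00843), Gm48551 (adjusted p = 0.0475) and Gm49980 (5.42 ± 0.933 against 23.2 ± 4.41 CPM, adjusted p = 0.0047).

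Genes known to differ between colonies of C57BL/6 mice were looked at after their values were seen, since all groups carry the same strain label. Nnt, the mitochondrial transhydrogenase that is partly deleted in C57BL/6J mice, was at 56.8, 37.9 and 62.6 CPM, then 106, 111, 134 and 144, then 72.7, 65.6 and 62.1 (log2 fold change -1.24 ± 0.19, adjusted p = 0.022). The annotation lists a second Nnt entry over the same exons, so its total is uncertain. Wdfy1, an endosomal adaptor, was at 29.5, 35.5 and 22.7 CPM, then 66.9, 63.2, 61.7 and 62, then 23.9, 19.4 and 30.1 (log2 fold change -1.12 ± 0.14, adjusted p = 0.0154). Entpd4b, 1 of a pair of near-identical lysosomal nucleotidase genes, was at 250, 331 and 248 CPM, then 104, 91.6, 96.6 and 90.7, then 209, 230 and 153 (log2 fold change 1.53 ± 0.12, adjusted p = 0.00271), and its copy Entpd4 was 2.81-fold higher (adjusted p = 0.0447). Entpd4 was not called with any 1 ovary left out. For Nnt, Wdfy1 and Entpd4b both old groups stood on the same side of all 4 Control ovaries. The part of the mice's origin in the other differences was not tested.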

How the data were processed

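Raw read counts per gene and FPKM values of 10 mouse ovaries were deposited by the authors, who per the submitters' processing notes used TopHat and Cufflinks 2.1.1 on GRCm38.p4. The counting tool and strand setting are not given in the sources used here. No value given here comes from the deposited FPKM columns. Ovaries were grouped by their labels. Genes were filtered with edgeR's filterByExpr over the Aged+CF and Control groups, the 10 libraries scaled by TMM, and the 7 ovaries fitted with edgeR 4.0 in R 4.3 (quasi-likelihood F test, Benjamini-Hochberg adjustment over 18500 genes, calls at adjusted p under 0.05 and a fold of at least 1.5). CPM used the TMM-scaled totals. The libraries held 15761789 to 21318254 counted reads, and the p-values rest on the spread between these samples. A gene with 3 reads or fewer in every ovary of a group was taken as at the floor. Positions and overlaps came from GENCODE M21, in which 55227 identifiers were found.

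Genes were named by a rule: among called genes that reached 1 CPM in a group mean and whose groups were apart, the 6 largest rises and 6 largest falls and the 3 most abundant of each direction, without predicted genes, of which the 3 largest of each direction were given apart; up to 2 called genes per list and direction with the smallest p, or the most abundant member; and the genes whose protein or mRNA the study assayed by other methods. Others were chosen after their values were seen, and 4 genes are not reported here. The question, the members, the gene lists and the leaving out of the Aged ovaries from the fit were chosen with earlier results of these data known. Lists are described by counts and medians only.

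The fit was tested on simulated counts with 200 changed genes. It recovered 16% of those changed 1.5-fold, 55.1% at 2-fold, 84% at 3-fold and 95.8% at 4-fold, and called 10 unchanged genes. Changes near the 1.5-fold limit were thus mostly missed in these simulated counts. Only 200 genes were changed in them, so the shares recovered in the real counts may differ. Alternatives were DESeq2 1.42 (Wald test, and size factors), limma 3.58 (voom), no filter, library totals only, all 10 ovaries, a replicate block, other thresholds and leaving out each ovary.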

Additional observations from a re-analysis of the deposited data

Results flagged for a closer look

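For each of 131 genes named and each of 40 gene lists, the 4 Control ovaries were checked for 1 ovary far from the other 3, by the gap relative to the range (Dixon's test at 95%). Chance alone marks about 1 in 20 such groups, and 12 were marked, so any 1 of them may be a chance mark. Control 33 stood above the others in 6 of them: it had 433 summed CPM of oviduct and cilia markers against 36 to 40.1, 297 CPM of Ovgp1 against 1.28 to 6.34, 36.7 CPM of Foxj1 against 0.435 to 1.9, 88 CPM of Gpnmb against 60.7 to 62.6, 77 CPM of Ctss against 58.7 to 59.6 and 19.9 CPM of Fmod against 14.1 to 15. Control 31 had 587 CPM of Inhba, a subunit of activin, against 1270 to 1360, 61.1 CPM of Ccn5 against 22 to 28.6 and 39.6 CPM of Gbp2 against 30.2 to 31.2. Control 32 had 2810 summed CPM of immediate early genes against 870 to 1120 and 339 CPM of Timp2 against 397 to 406. Control 34 had the 1 read of Gm13301 in the group, 0.0528 CPM, against 0 in the others.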

How the results depend on the processing

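With the 454 calls (206 higher, 248 lower) as reference, the count was 34 (26 and 8) with all 10 ovaries in the fit, 266 (140 and 126) with no filter on low counts, 1221 (542 and 679) by DESeq2's Wald test, 291 (128 and 163) at a fold of at least 2 and 1942 (769 and 1173) at unadjusted p. DESeq2's size factors, library totals alone, limma-voom and no minimum fold gave 499, 558, 424 and 530. With library totals alone 34.8% of calls were higher, against 45.4% with TMM, and the share was 52.6% with no filter. At unadjusted p, 4216 genes passed at any fold, 905 at 2-fold and 2778 with no filter. Leaving out 1 ovary gave 48 to 439 calls, 28 to 207 higher and 17 to 261 lower, and 1468 to 2190 at unadjusted p. The replicate number is shared by 2 ovaries of each group that come from different mice. Correlations of their deviations were -0.09 and 0.15, against -0.12 to 0.11 for pairs of unlike numbers. With 2 such pairs, these values cannot tell whether the number marks anything shared. The replicate block left 1 residual degree of freedom and called 0 genes with edgeR (2191 at unadjusted p, 0 higher and 0 lower at adjusted p). Genes near 0 changed sign. The block moved Lck to 0.37, Tef to -0.06 and Ccl4 to -0.08 on the log2 scale. Atp5b was at 0.01 with no filter, with DESeq2's size factors and by DESeq2, and Ccl4 at 0 with library totals. Leaving out 1 ovary gave -0.18 to 0.14 for Lck, -4.26 to 2.02 for Ovgp1 (the highest without Control 33), -0.08 to 0.02 for Atp5b, -0.16 to 0.03 for Jund, -0.06 to 0.19 for Tef, -0.29 to 0.23 for Fshr and -0.3 to 0.33 for Ccl4. No called gene named changed direction in any alternative. Causes of these shifts were not tested. With 3 and 4 samples, small changes cannot be told from the spread between samples.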
